A study of Bos taurus with 4 samples.

Results

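The translation initiation and elongation factors are the genes whose array symbol begins with EIF1 to EIF6, EEF1 or EEF2, together with the release factor genes ETF1, GSPT1 and GSPT2. On the array they numbered 62 of 15216 named genes, and 48 of them had a probe bright enough to test, of 7879 genes tested. The 62 genes comprised 16 of the EIF2 family, 12 of the EIF3 family, 14 of the EIF4 family, 9 other initiation factors, 8 elongation factors and 3 release factors. A probe was tested where, on 3 or more of the 4 arrays, its spot was brighter than the negative control spots in the channel of either group, and the brightest tested probe stood for each gene. The members were picked by symbol, as a list chosen with earlier results of these data known.

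The factors were measured in Holstein (Bos taurus) morulas and blastocysts on 4 dual-colour Agilent arrays. The embryos came from superovulated dairy cows grouped by circulating beta-hydroxybutyrate (BHB), a ketone body made when fat is burned to meet an energy deficit. The low BHB group lay under 0.9 mmol/l and was described as weakly affected by a metabolic disorder. The high BHB group lay over 0.9 mmol/l and was described as being in strong negative energy balance. Cows of both groups had the same FSH and cloprostenol treatment, were inseminated with sexed semen from several bulls, and had their embryos collected 7 days after the start of oestrus. Every array held 1 amplified RNA of each group, with high BHB in Cy5 on arrays 1 and 2 and in Cy3 on arrays 3 and 4. The labels call the arrays 4 biological replicates without telling if each came from 1 cow or from pooled cows, so p-values reflect only how these arrays vary, which may be technical in part. All ratios below are log2 of high over low BHB, given as mean ± SD over n = 4 arrays unless stated, so that a negative value means less signal in embryos of high BHB cows.

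Translation of a capped mRNA starts when EIF2 carries the initiator tRNA to the small ribosomal subunit, EIF3 holds the subunit open and links it to the mRNA, and the EIF4 factors bind the cap and unwind the leader. EIF1, EIF5 and EIF5B govern the choice of the start codon and the joining of the large subunit, EEF1 and EEF2 drive elongation, and the release factors end it. In the early embryo these factors are first supplied by the oocyte and then made from the embryonic genome, and by the blastocyst stage protein synthesis has risen with growth.

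Most factors lay on the lower side in embryos of high BHB cows. The EIF3 family had the lowest median over the 4 arrays, though by a small margin without array 1. Of the 48 tested members 34 had a mean ratio below 0 and 14 above, that is 70.8% below, while 54.4% of all tested genes were below 0. The median over members was -0.30 (0.813-fold), and it was -0.48, -0.19, -0.13 and -0.37 on arrays 1 to 4. All 4 array medians were thus below 0, array 1 being the lowest and array 3 the nearest to 0. The median over all tested genes was -0.04, with array medians of -0.14, 0.01, -0.02 and -0.06. In bulk embryos, fewer cells of a type and less RNA per cell cannot be told apart.

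At an unadjusted p under 0.05 in limma 10 members were lower and 0 higher. These 10 were 20.8% of the tested members, beside a background of 11.6% of all tested genes lower and 5.72% higher. None of the members passed at an adjusted p under 0.05, where the smallest adjusted p of any member was 0.202. If arrays with the same number in their titles are instead averaged as 1 replicate, 9 of 48 members had an adjusted p under 0.05 in limma. So did 1178 of the 16467 probes then tested, a count over probes and not over genes. The calls were thus not confined to the members, and the shares of members and of all genes were not compared. That averaging leaves 1 value for each title number, so few values stand behind each p. The source labels number the RNAs 1 to 4 separately. In the main fit limma called 2 of 16575 tested probes at that threshold, which is 0.0121%, and 2477 had an unadjusted p under 0.05. The ratio was below 0 on all 4 arrays for 14 members, or 29.2%, against 15.6% of all tested genes. No member was above 0 on all 4 arrays, against 10.3% of all tested genes. Without array 1 the members' median was -0.16, and without arrays 2, 3 and 4 it was -0.23, -0.25 and -0.24. With median centring of each array in place of loess the median of all genes moved from -0.04 to -0.23 and the members' median to -0.61, so that the members lay 0.38 below all genes rather than 0.25. Under that scaling 97.9% of all genes at an unadjusted p under 0.05 were lower, against 67% with loess.

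**Figure D1:**
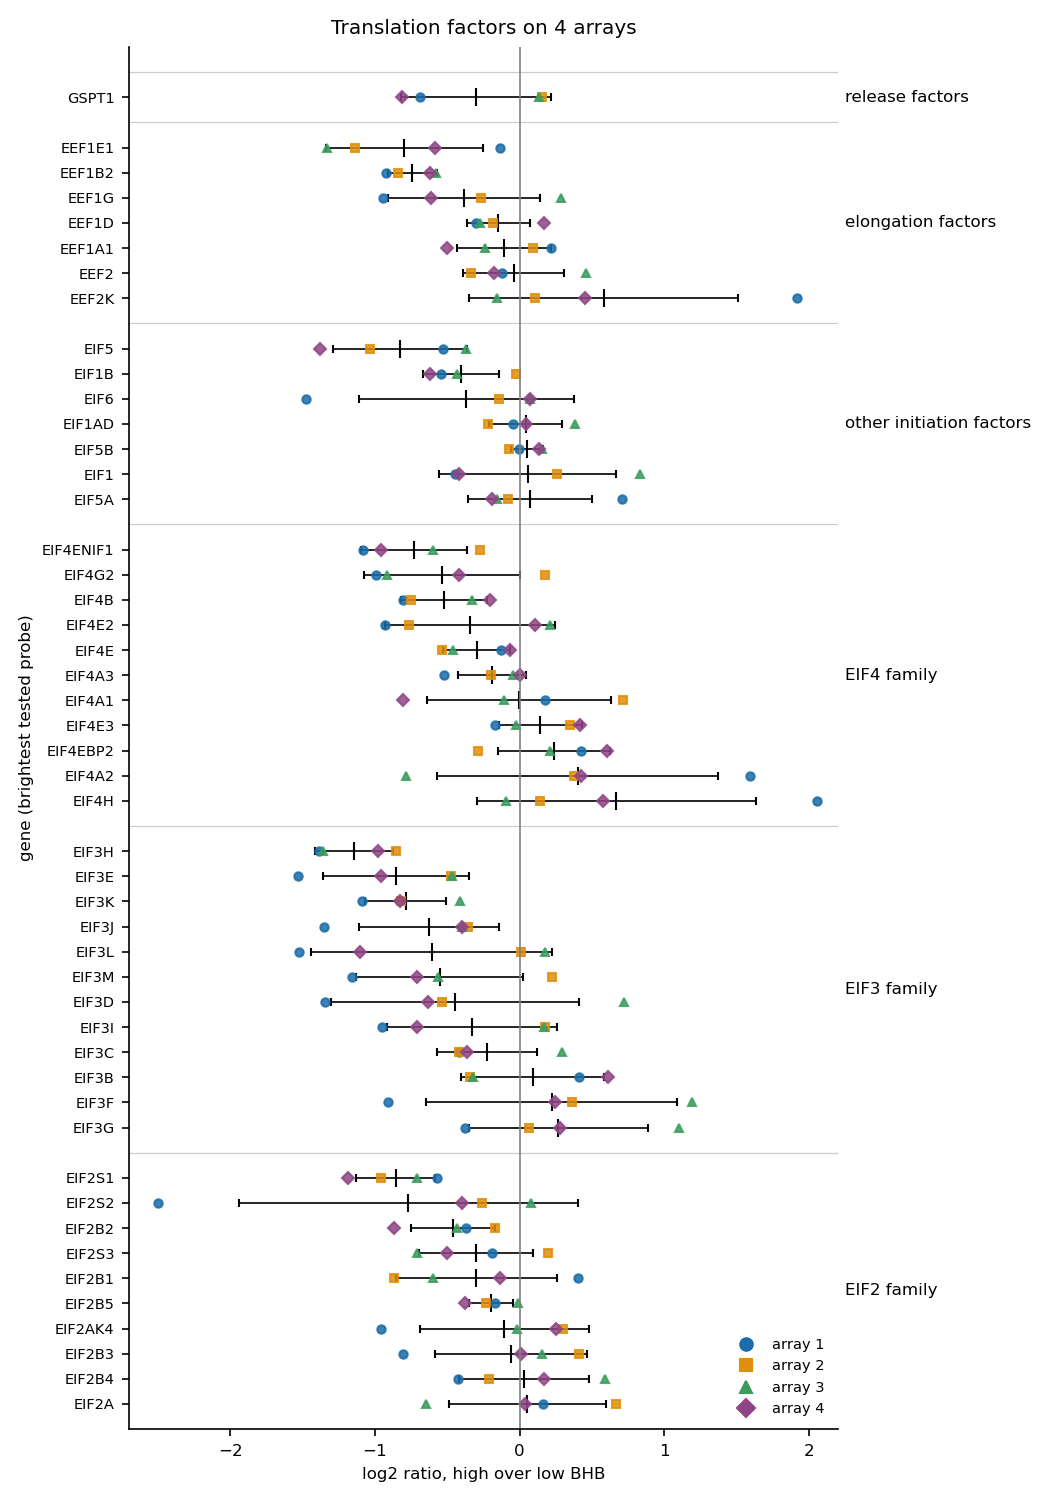
Log2 ratio of high over low BHB for each of the 48 tested factors, grouped by family. Each point is 1 array, each tick is the mean of the 4 arrays and each horizontal bar spans the SD on either side of it. Points of array 1 lie farthest out for many factors, and EIF3H, EIF2S1, EIF3K and EEF1B2 have all 4 points below 0.

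Among the EIF2 genes, 8 of 10 tested lay below 0, with a median of -0.25 and 1 of them lower at an unadjusted p under 0.05. EIF2S1 encodes the alpha subunit, whose phosphorylation by the EIF2AK kinases slows initiation, and it read -0.57, -0.96, -0.71 and -1.19 on arrays 1 to 4. All 4 values were below 0 and none stood apart, giving -0.86 ± 0.27 (0.552-fold, adjusted p = 0.204 in limma). EIF2S2, the beta subunit, had a mean nearly as low at -0.77 ± 1.17, but array 1 read -2.50 while the others read -0.26, 0.08 and -0.40. Its values per array are given because array 1 decided its mean, a choice made after they were seen: without array 1 the mean was -0.19. EIF2S3, the gamma subunit that binds GTP and the initiator tRNA, had -0.30 ± 0.40. The 3 subunits of the same complex thus shared a side of 0 in their means, and only the alpha subunit did so on every array.

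EIF2B is the exchange factor that reloads EIF2 with GTP, and 4 of its 5 subunits had means below 0. EIF2B2 had -0.46 ± 0.29 and EIF2B5, the catalytic subunit, -0.20 ± 0.15, and both were below 0 on all 4 arrays. EIF2B1 had -0.30 ± 0.56, EIF2B3 -0.06 ± 0.52 and EIF2B4 0.03 ± 0.45, so that for these 3 the spread between arrays exceeded the mean. EIF2AK4, the kinase GCN2 that senses uncharged tRNA, had -0.11 ± 0.59, and 0.18 without array 1. The other EIF2AK kinases on the array, EIF2AK1, EIF2AK2 and EIF2AK3, had no probe that could be tested. EIF2A, a separate protein able to bring in initiator tRNA, had the highest mean of the family: it read 0.16, 0.67, -0.65 and 0.03, or 0.05 ± 0.54 (adjusted p = 0.936 in limma). Its arrays lay on both sides of 0, and its spot was above the negative controls in the high BHB channel on 2 arrays and in the low BHB channel on 3.

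The EIF3 family had the lowest median of the 5 families at -0.50 (0.708-fold), with 9 of 12 genes below 0 and 4 of them lower at an unadjusted p under 0.05. Its medians on arrays 1 to 4 were -1.13, -0.35, -0.08 and -0.67. Arrays 1 and 4 carried the lowest values and array 3 lay close to 0. Without array 1 the median of the gene means was -0.23, close to -0.20 for EIF2 and -0.20 for the elongation factors. With median centring the EIF3 median was -0.94. EIF3 probes were also the brightest of the 5 families, with a median log2 intensity of 12.83 against 10.02 to 11.46 in the other 4. The part of probe brightness in this ranking was not tested. All 12 EIF3 genes on the array were tested, among them the structural subunits of the EIF3 core and more loosely held or RNA-binding ones. EIF3A was not analysed here.

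EIF3H, a core subunit with an MPN domain, had the lowest mean of all 48 members. It read -1.38, -0.86, -1.36 and -0.98 on arrays 1 to 4, and array 2 was the nearest to 0. Its mean was -1.14 ± 0.27 (0.452-fold, adjusted p = 0.202 in limma). The mean log2 intensity of its probe was 12.78 ± 0.53 in the high BHB channels and 13.93 ± 0.55 in the low BHB channels. EIF3E, a PCI-domain subunit of the same core, read -1.53, -0.47, -0.47 and -0.96, or -0.86 ± 0.50 (0.552-fold, adjusted p = 0.224). EIF3K, the smallest core subunit, read -1.09, -0.82, -0.41 and -0.83, or -0.79 ± 0.28 (0.579-fold, adjusted p = 0.222). For these 3 genes every array lay below 0, with array 1 the lowest for each of them.

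EIF3J, a subunit that sits near the mRNA channel and is only loosely bound, read -1.35, -0.36, -0.40 and -0.39. Array 1 stood apart from the other 3, which lay close together, so that the mean was -0.63 ± 0.49 (0.648-fold, adjusted p = 0.295 in limma) and became -0.38 without array 1, where it was no longer among the lower members. EIF3L, a PCI-domain subunit, had -0.61 ± 0.83, and -0.30 without array 1. EIF3M, a further PCI-domain core subunit, had -0.55 ± 0.58. EIF3D, which can bind the cap of some mRNAs itself, had -0.45 ± 0.86, and EIF3I, a WD-repeat subunit, -0.33 ± 0.59. EIF3C, the scaffold subunit, had -0.23 ± 0.35. For EIF3L, EIF3D and EIF3I the spread between arrays exceeded the mean, as it did for EIF3M and EIF3C.

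Above 0 in this family were EIF3B, EIF3F and EIF3G, and none of them lay above 0 on every array. EIF3G, an RNA-binding subunit, had the highest mean and read -0.38, 0.07, 1.10 and 0.28, or 0.27 ± 0.62 (adjusted p = 0.64 in limma). Its direction rested on array 3, without which the mean was -0.01, and with median centring the mean was -0.22. EIF3F, the other MPN-domain subunit and a core neighbour of EIF3H, had 0.22 ± 0.87, with 0.60 without array 1 and -0.10 without array 3. EIF3B, a scaffold of the subunits around EIF3G and EIF3I, had 0.09 ± 0.49. Of the 7 tested subunits of the structural octamer (C, E, F, H, K, L and M) 6 lay below 0, with a median of -0.61, and of the 5 outside it (B, D, G, I and J) 3 did, with a median of -0.33. This split was made after the values were seen and was not tested.

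The EIF4 family had a median of -0.19, with 7 of 11 tested genes below 0 and 2 lower at an unadjusted p under 0.05. EIF4ENIF1, the protein 4E-T that carries the cap-binding EIF4E into the nucleus and into mRNA granules, had the lowest mean and read -1.09, -0.28, -0.60 and -0.96. All arrays were below 0, with a mean of -0.73 ± 0.37 (0.603-fold, adjusted p = 0.248 in limma), and the spot was above the negative controls in the high BHB channel on only 2 arrays. EIF4B, a cofactor of the helicase EIF4A, read -0.80, -0.75, -0.33 and -0.21, or -0.52 ± 0.30 (0.696-fold, adjusted p = 0.31). Its mean was -0.18 without background correction and -0.30 with normexp fitted on all spots, and it was not among the lower members there or without arrays 1, 2 or 3 (-0.43, -0.45 and -0.59). Arrays 1 and 2, with high BHB in Cy5, were lower for EIF4B than arrays 3 and 4, on which the dyes were exchanged. EIF4H, which acts on the same helicase as EIF4B, had the highest mean of all 48 members and read 2.06, 0.14, -0.09 and 0.58. Array 1 gave most of that mean of 0.67 ± 0.97 (1.59-fold, adjusted p = 0.357), which was 0.21 without it and 0.20 with median centring. Without array 3 it was 0.92, at an unadjusted p under 0.05.

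EIF4E itself, the cap-binding protein, had -0.30 ± 0.23 and was below 0 on all 4 arrays. EIF4E2, a cap-binding homologue that can repress translation, had -0.34 ± 0.59 and EIF4E3 0.14 ± 0.28. EIF4G2, a scaffold that lacks the EIF4E site and serves initiation independent of EIF4E, had -0.54 ± 0.54. Of the helicases, EIF4A1 had -0.00 ± 0.63, EIF4A2 0.40 ± 0.97 and EIF4A3, a part of the exon junction complex, -0.19 ± 0.24. Without array 1 EIF4A2 was at 0.01. EIF4EBP2, which sequesters EIF4E when it is not phosphorylated, had 0.24 ± 0.39, and EIF4EBP1 had no testable probe. EIF4G1 was not analysed here.

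The other initiation factors had a median of 0.04, with 3 of 7 tested genes below 0 and 1 lower at an unadjusted p under 0.05. With median centring their median was -0.41, which was below the median of all genes under that scaling, and without array 3 it was -0.20. EIF5, which triggers GTP hydrolysis by EIF2 at the start codon, read -0.53, -1.03, -0.37 and -1.38. It was below 0 on every array, with a mean of -0.83 ± 0.46 (0.563-fold, adjusted p = 0.225 in limma), and above the negative controls in the high BHB channel on 3 arrays. With the stricter filter another probe stood for it, at -0.40, and it was not among the lower members. EIF5A, which relieves stalled ribosomes, had the highest mean of the group and read 0.71, -0.08, -0.15 and -0.19. Only array 1 was above 0, so that the mean of 0.07 ± 0.43 (adjusted p = 0.904) became -0.14 without it, and it was -0.41 with median centring.

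EIF1B, a paralogue of the scanning factor EIF1, had -0.41 ± 0.26 and was below 0 on all arrays, while EIF1 had 0.06 ± 0.61. EIF6, which keeps the large subunit from joining too early, had -0.37 ± 0.74 and lay at 0.00 without array 1. EIF5B, the GTPase of subunit joining, had 0.05 ± 0.11, the smallest spread of the 48 members. EIF1AD, a protein with an EIF1A-like domain, had 0.04 ± 0.25. EIF1AX was not analysed here.

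**Figure D2:**
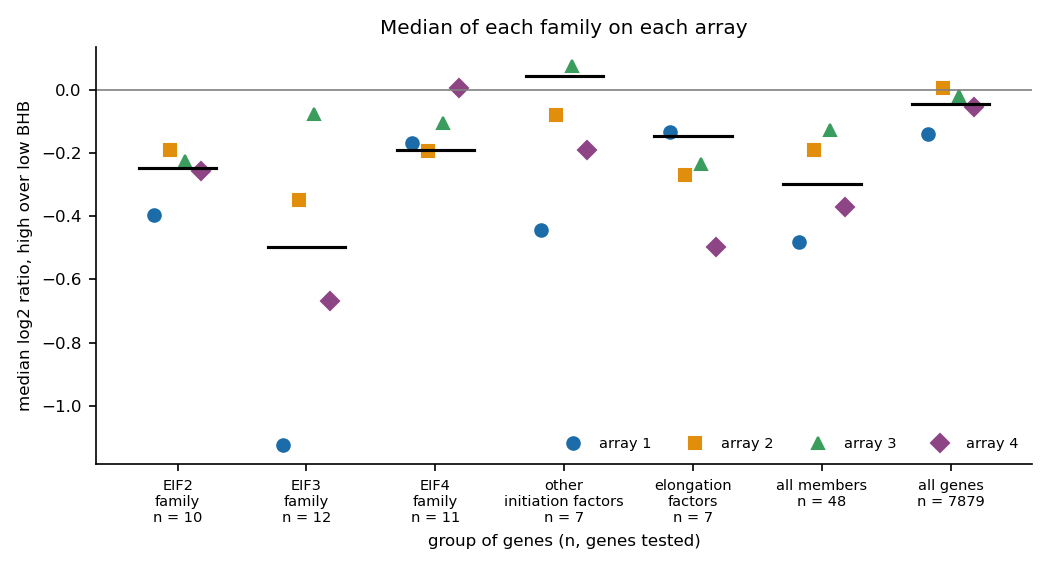
Median log2 ratio of high over low BHB of each family on each array (points) and over the gene means (bars). The EIF3 family ran from -1.13 on array 1 to -0.08 on array 3, and its median was below that of the other initiation factors on all 4 arrays.

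Of the 7 tested elongation factor genes 6 lay below 0, with a median of -0.15, and 2 were lower at an unadjusted p under 0.05. EEF1B2, the beta subunit of the exchange factor for EEF1A, read -0.92, -0.84, -0.58 and -0.62. Its mean of -0.74 ± 0.17 (0.598-fold, adjusted p = 0.222 in limma) had the smallest spread of the 10 lower members. EEF1E1, also known as p18 or AIMP3, belongs to the aminoacyl-tRNA synthetase complex and read -0.13, -1.14, -1.33 and -0.59. All of its arrays were below 0 but array 1 lay near 0, with a mean of -0.80 ± 0.54 (0.575-fold, adjusted p = 0.258). Without array 2 or 3 it was -0.68 or -0.62 and not among the lower members. Of the other exchange factor subunits, EEF1G had -0.39 ± 0.52 and EEF1D -0.15 ± 0.22.

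EEF1A1, which delivers aminoacyl-tRNA to the ribosome, had -0.10 ± 0.33 and EEF2, the translocase, -0.04 ± 0.35, both within their spread of 0. EEF2K, the kinase that inactivates EEF2, had the highest mean of the group and read 1.92, 0.11, -0.16 and 0.45. Array 1 again lay far above the others, so that 0.58 ± 0.93 (1.5-fold, adjusted p = 0.398 in limma) became 0.13 without it, and it was also 0.13 with median centring. Without array 3 it was 0.83, at an unadjusted p under 0.05. EIF4H, EIF4A2 and EEF2K, the 3 members with the highest means, each had their highest value on array 1, their next on array 4 and a value below 0 on array 3. Among the release factors only GSPT1, the GTPase that works with ETF1, could be tested. It read -0.69, 0.15, 0.14 and -0.81, with arrays 1 and 4 low and arrays 2 and 3 just above 0, or -0.30 ± 0.52 (0.811-fold, adjusted p = 0.558).

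Family medians were compared array by array, without a test. EIF3 was below the other initiation factors by 0.68, 0.27, 0.15 and 0.48 on arrays 1 to 4, a mean difference of -0.39 ± 0.23. EIF3 minus EIF4 was -0.96, -0.15, 0.03 and -0.68, or -0.44 ± 0.46, and EIF3 minus the elongation factors was -0.99, -0.08, 0.16 and -0.17, or -0.27 ± 0.50. EIF2 minus EIF3 was 0.73, 0.16, -0.15 and 0.41, or 0.29 ± 0.37. These last 3 differences were smaller than the spread between arrays. EIF2 and the elongation factors differed by 0.02 ± 0.21. On array 3 the sign was opposite to the mean when EIF3 was set against EIF4, the elongation factors or EIF2.

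Array 1 carried much of the size of many members. When each array was left out in turn, the mean of 34 of the 48 members moved by over 1.5 times or across 0 at least once. Of the members 30 members moved in this way without array 1, 19 without array 2, 21 without array 3 and 14 without array 4. The other 14 members kept their values within that limit: EIF2S1, EIF2B2, EIF2B5, EIF3E, EIF3H, EIF3K, EIF4B, EIF4E, EIF4ENIF1, EIF4G2, EIF5, EIF1B, EEF1B2 and EEF1E1. All of these had means below 0. They include 9 of the 10 members lower at an unadjusted p under 0.05, the exception being EIF3J. Both the limit and the p rest on the spread of the same 4 arrays, so this overlap is partly built in. The share of all tested genes within the limit is not given here. Without array 1 the count of lower members was 9 and of higher members 1, EIF3F, beside 9.42% of all tested genes lower and 5.27% higher. The SD of the log2 ratios over all tested probes was 0.83 on array 1 and 0.44 to 0.61 on the others, and its part in these values was not tested.

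**Figure D3:**
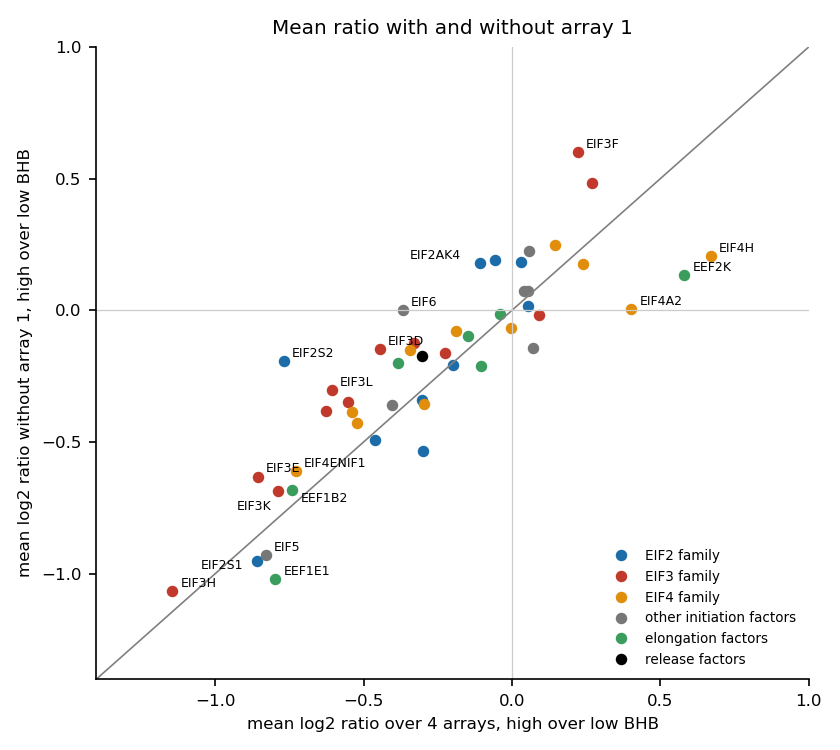
Mean log2 ratio of high over low BHB without array 1 (vertical axis) against the mean over all 4 arrays (horizontal axis) for each of the 48 tested factors, with the line of equality. EIF2S2 moves from -0.77 to -0.19 and EIF4H from 0.67 to 0.21, whereas EIF2S1, EIF3H and EEF1B2 stay near the line.

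Most factors have bright probes, and bright probes were called more often on these arrays. When all tested genes were split by mean probe intensity into 4 bins of equal size, the share lower at an unadjusted p under 0.05 was 5.18%, 9.44%, 13.4% and 18.5% from the dimmest to the brightest bin. The share higher was 0.761%, 2.74%, 6.91% and 12.5%. Of the members 1, 6, 12 and 29 lay in these bins. In the brightest bin 7 of 29 members were lower, or 24.1%, against 18.5% of all genes there. In the same bin 79.3% of the members were below 0, against 53.5% of all genes. From the dimmest to the brightest bin the members' medians were 0.24, -0.001, -0.25 and -0.37. Those of all genes were 0.005, -0.07, -0.09 and -0.06. No member of any bin was higher at an unadjusted p under 0.05 in limma, against 12.5% of all genes in the brightest bin. The part of probe brightness in the members' ratios was not tested.

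**Figure D4:**
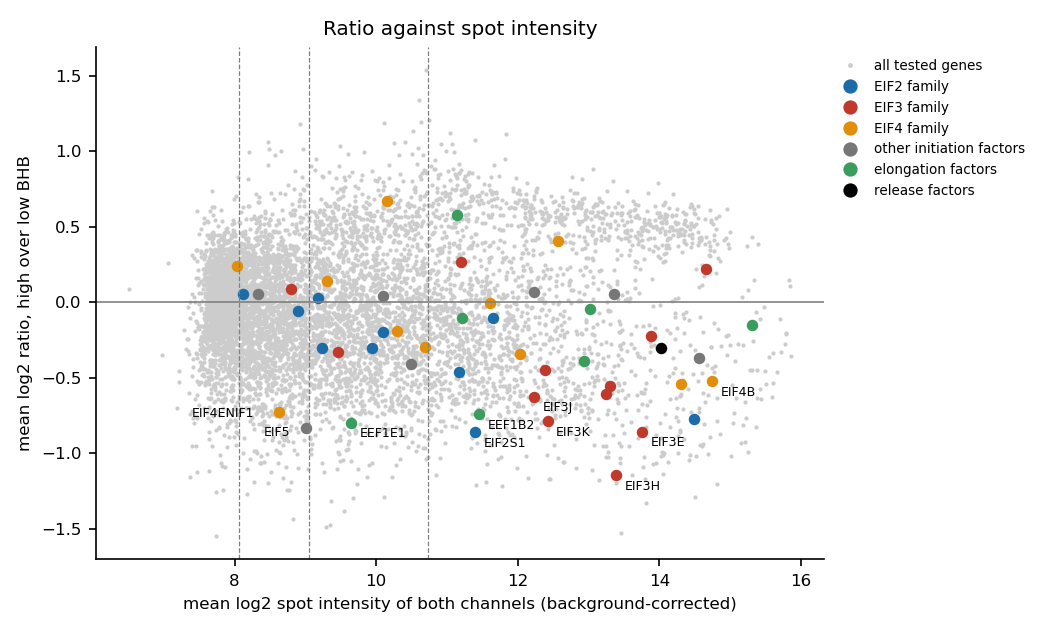
Mean log2 ratio of high over low BHB against mean log2 probe intensity for all 7879 tested genes (grey) and the 48 tested factors (coloured by family), with lines between 4 intensity bins of equal size. Of the factors 29 lie in the brightest bin, where 79.3% are below 0, against 53.5% of all genes there.

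A second probe was available for a check in 13 members, and in 11 of these all tested probes lay on the same side of 0. The other probe of EIF4H had 0.20 and that of EIF3I -0.40. The other probes of EIF5 had -0.40 and -0.63, and those of EIF3F 0.06, 0.46 and 0.34. EIF4E had 2 further probes. The first had -0.31, and the other, a dim one above the negative controls in the high BHB channel on 2 arrays, read -0.85, -0.76, -0.72 and -0.81, a much narrower range than the brightest probe. The probes of EIF2B2 and EIF4E2 disagreed: besides the values above, EIF2B2 had -0.38 and 0.07, and EIF4E2 had 0.04 and -0.18. Of the 10 lower members only EIF5 had a second tested probe, so the other 9 rest on 1 probe each.

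The 14 members without a tested probe were EIF1AY, EIF2AK1, EIF2AK2, EIF2AK3, EIF2C1, EIF2C2, EIF2C3, EIF4E1B, EIF4EBP1, EIF4G3, EIF5A2, EEF1A2, ETF1 and GSPT2. The 3 EIF2C symbols are older names of the Argonaute genes AGO1, AGO2 and AGO3, which act in small RNA silencing and not as EIF2 subunits. EIF2C1, EIF4E1B, EIF4G3 and GSPT2 were not above the negative controls on any array in either channel. No member was saturated. Leaving out the kinases, Argonautes, binding proteins and EEF1E1 gave a median of -0.30 over the remaining factors, the same as over all.

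Other genes of the pathway were read from lists of named genes. Of 34 further regulators of translation 30 were on the array and 26 were tested. Their median was -0.09, and 16 lay below 0, or 61.5%, against 54.4% of all tested genes. At an unadjusted p under 0.05 in limma 5 were lower and 0 higher, beside 11.6% of all tested genes lower and 5.72% higher. The 5 were HBS1L, which rescues stalled ribosomes (-0.94 ± 0.64, adjusted p = 0.225 in limma), DHX29, a helicase that helps scanning (-0.82 ± 0.50, adjusted p = 0.237), N6AMT1, a methyltransferase of ETF1 (-0.56 ± 0.23, adjusted p = 0.286), PAIP2, an inhibitor of the poly(A)-binding protein (-0.54 ± 0.35, adjusted p = 0.307), and ABCE1, which splits ribosomes after release (-0.52 ± 0.32, adjusted p = 0.311). HBS1L and ABCE1 were above the negative controls in the high BHB channel on only 2 arrays, and on 4 in the low BHB channel. They thus passed the filter only through the group in which they read higher. Of the 8 mitochondrial translation factors tested 5 lay below 0, or 62.5%, with a list median of -0.21. The 1 that was lower, beside the same 11.6% of all tested genes, was GFM1, the mitochondrial translocase (-0.54 ± 0.33, adjusted p = 0.309). Cytosolic ribosomal proteins, tested as 61 genes, lay below 0 in 60 cases with a median of -0.49, and 29 of them, or 47.5%, were lower at an unadjusted p under 0.05. Among all tested genes 11.6% were lower, and 18.5% among those in the brightest bin. The factors' median of -0.30 lay between that of the ribosomal proteins and that of the regulators. Median log2 probe intensities ran in the same order, at 13.39 for the ribosomal proteins, 11.43 for the factors and 8.72 for the regulators. The part of probe brightness in this order was not tested.

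The arrays agreed only in part. Across the 48 members the ratios of arrays 1 and 4 correlated most (r = 0.53) and those of arrays 1 and 3 least (r = -0.08), against 0.38 and 0.10 over all tested probes. These are descriptions across genes measured on shared arrays. Median intensities per array ran from 213 to 421 units in Cy5 and from 290 to 612 in Cy3, and 33.4% to 40.5% of probes were above the negative controls in the high BHB channels against 33.6% to 48.6% in the low BHB channels. All 8 listed trophectoderm markers were tested, with a median of 0.00, GATA2 at 0.60 ± 0.20 (adjusted p = 0.275 in limma) being the one higher at an unadjusted p under 0.05, and a summed intensity of 63900 to 119000 units in the high and 85000 to 129000 in the low BHB channels. Of the inner cell mass markers 4 of 5 were tested, with a median of -0.34 and sums of 5050 to 10200 and 5140 to 13000 units. Of the hypoblast, oocyte and blood markers 2 each were tested. Their medians were 0.46, 0.19 and 0.34. The inner cell mass median lay on the same side of 0 as most factors, and the hypoblast and blood medians on the opposite side. Of the trophectoderm markers 4 lay below 0 and 4 above. Of the 2 oocyte markers 1 lay below 0, and the median of that list was 0.99, -0.21, 0.18 and -0.22 on arrays 1 to 4. GATA4 of the hypoblast list was at 0.55 ± 0.37 (adjusted p = 0.304 in limma), higher at an unadjusted p under 0.05. The summed intensities of these 3 lists over the high BHB channels were 2620 to 5670, 2720 to 15400 and 23700 to 36900 units and over the low BHB channels 2090 to 4290, 2790 to 7140 and 16800 to 29300. None of 6 cumulus cell and 5 uterine epithelium markers passed the filter. The part of these markers, and of the mix of morulas and blastocysts, in the members' ratios was not tested.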

How the data were processed

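Embryo RNA was measured on 4 dual-colour arrays of 43794 probes. The authors deposited scanner files with spot and background intensity in both channels, per the file headers, and a table of log2 ratios per array. The labels name no scaling step; limma appears in the submitters' processing notes, with its use unstated. The deposited log2 ratios already ran high over low BHB: their correlation with the ratios computed here was 0.967 to 0.992, and their array medians were 0.001 to 0.017. A further table with 4 columns of per-sample values was not used.

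From the median intensity of each spot, background was corrected by normexp (offset 50) and each array normalized by loess (span 0.3, 4 iterations) with limma 3.58.1 in R 4.3.3. Control spots had weight 0, and the 95 to 114 spots per array that the scanner software had set aside were left out. A channel was above background where the spot exceeded the median plus 2 scaled MAD of 153 negative control spots. Ratios were tested with lmFit and eBayes, 2-sided, with Benjamini-Hochberg adjustment over all tested probes. The fit was tested on simulated data. The dyes are balanced, and as a model term they were called for 0 probes at an adjusted p under 0.05.

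Symbols came from the platform annotation for 21790 probes, and 22004 had none. Current names were taken from the gene table of RefSeq (ARS-UCD2.0), in which 20025 were current and 1524 were synonyms. EEF1B2 is listed on the platform as EEF1B, EIF3C stands in RefSeq under EIF3CL, and 8 probes with other older symbols lie outside the rule. The members and lists were chosen with earlier results of these data known. Values per array are given for members with an unadjusted p under 0.05 and for the highest and lowest mean of each family. Alternatives changed the background correction, normalization, filter, probe choice, source of the ratios, dye term and arrays. Promoter sequences were not analysed here. The number of arrays limits the precision.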

Additional observations from a re-analysis of the deposited data

Results flagged for a closer look

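For 4 of 54 values checked, 1 array lay far from the other 3, by a gap that chance gives in about 1 in 20 groups of this size. EIF3J read -1.35 on array 1, where the others averaged -0.38. EIF6 read -1.48 on array 1, where the others averaged 0.00. EIF5A read 0.71 on array 1, where the others averaged -0.14. EIF3C read 0.30 on array 3, where the others averaged -0.40. Of these 4 genes 3 had array 1 as the distant one, on the lower side for EIF3J and EIF6 and on the higher side for EIF5A.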

How the results depend on the processing

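The 10 lower members numbered 24 with median centring, 16 with no filter (62 members tested) and 8 to 14 in the other alternatives. The share of all genes lower was 22.7% with median centring, against 11.6% in the main fit. It was 8.09% with no filter and 7.16% to 15.2% in the other alternatives. Of the 10 lower members EIF2S1, EIF3H, EIF3E, EIF3K and EEF1B2 stayed lower at an unadjusted p under 0.05 in 15 of 15 alternatives and EIF4B in 10. Higher members numbered 1 without background correction (EIF3F), 2 with arrays of one title number averaged (EEF2K and EIF4H) and 0 to 3 with an array left out. The share of all genes higher was 5.08%, 10.5% and 2.6% to 6.63% there. Members below 0 on all arrays went from 14 to 24 with median centring. Of all genes 15.6% were below 0 on all arrays in the main fit, and that share is not given here for median centring. By the mean alone, 89.6% of members and 68.8% of all genes were below 0 with median centring. In the main fit these were 70.8% and 54.4%. The titles repeat the numbers 1 and 2, though the labels call the arrays 4 replicates. Averaging arrays of one title number gave 9 members and 1178 of 16467 tested probes at an adjusted p under 0.05 in limma, and the cause was not tested. Probes called were otherwise 0 with normexp on all spots or median centring, 1 without background correction, without a filter or with a dye term, 3 with a stricter filter, and 0 to 2 with an array left out. The median of all members was -0.61 with median centring. That of EIF2 was -0.57 with median centring and -0.14 without a filter. That of EIF3 was -0.94 with median centring and -0.62 to -0.23 with an array left out. That of EIF4 was -0.62 with median centring, -0.10 with a stricter filter, 0.036 without a filter and -0.255 to -0.079 with an array left out. That of the other initiation factors was -0.41 with median centring and -0.20 to 0.028 with an array left out. That of the elongation factors was -0.60 with median centring and -0.35 with loess on the tested probes. EIF2A ran from -0.15 to 0.29, EIF3G from -0.0085 to 0.48 and EIF5A from -0.14 to 0.16 with an array left out, and EIF3G was -0.22 and EIF5A -0.41 with median centring. EIF4B was -0.18 without background correction. In the remaining 141 comparisons counts stayed within 1.5 times and medians within 1 SD between arrays, and in 201 named genes kept their direction, though not always their size, with 0 at an adjusted p under 0.05. Each array holds both groups, so every ratio is already a pair, and the averaging above is how the shared title numbers were used. Dim probes and 4 arrays limit what can be called.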
